A study of Drosophila melanogaster with 12 samples.

Results

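Fly heads collected at day 7, after levetiracetam (LEV) had been taken away and pentylenetetrazole (PTZ) had been kept in the food, were measured on 4 of the 12 arrays of the series. These 4 were all the arrays labelled as 7 days. Each array set the RNA of 1 treated pool of heads against that of 1 control pool kept in parallel, and the labels call the 4 arrays biological replicates. All heads came from unmated Oregon-R wild type males of *Drosophila melanogaster*. Treated flies ate food with 8 mg/ml PTZ and 5 mg/ml LEV for 4 days and then food with 8 mg/ml PTZ alone for 3 days, at 30 flies per vial. Control flies ate normal food over the same 7 days, 4 in a first set of vials and 3 in fresh ones. The other 8 arrays measured heads after 12 h or 2 days on both drugs, 4 arrays each, also against controls on normal food. The age label reads 3 to 4 days. A further 10 to 11 days of upkeep in the growth protocol leave the age at the start unsettled. A line of the design text names LEV as the food after the shift, whereas the protocols of the treated day 7 heads name PTZ, which was followed here. No arm kept on LEV to day 7, or on PTZ alone throughout, is among these arrays, so the withdrawal of LEV, the longer exposure to PTZ and the later time cannot be told apart.

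PTZ is a convulsant that blocks chloride channels opened by the inhibitory transmitter GABA. LEV is an antiepileptic drug that binds the synaptic vesicle protein SV2A in mammals. A fly head holds brain, compound eyes, antennae, muscle and fat body, so an RNA level from it sums over many cell types. In such bulk samples, fewer cells of a type and less RNA per cell cannot be told apart.

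The arrays were spotted with cDNA and carried 2 dyes. The treated sample was in Cy5 on replicates 1 and 2 and in Cy3 on the other two. The authors deposited log2 ratios between the dyes, and the sources do not say whether these are Cy5 over Cy3 or already treated over control. Under both possibilities replicates 1 and 2 read as treated over control. Ratios inverted on every array, which would reverse all signs, were not considered. Replicates 3 and 4 read as treated over control after their sign is turned, if the ratios are Cy5 over Cy3, or as they stand otherwise. Gene means are therefore given with replicates 3 and 4 turned and as deposited. All values are centred log2 ratios, that is, log2 ratios from which the median of their array was subtracted, unless another scale is named.

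Few spots had a value. Replicates 1 to 4 held 1394, 2165, 2730 and 14042 of 27648 spots, or 5.04%, 7.83%, 9.87% and 50.8%. Before centring, the array medians were -0.67, -0.63, 0.74 and -0.55. The 2 spots of a probe differed by over 1 log2 unit in 37.4%, 23.8%, 19.0% and 13% of the pairs, so replicate 1 was the noisiest array by this measure and replicate 4 the fullest and least noisy. The tests took in the 865 probes with a value on at least 3 of the 4 arrays. Of these, 603 had all 4 and 262 had 3. Only 142 of the 865 carried a single gene symbol, for 141 genes, while 721 carried no symbol and 2 carried several. Among the 141 genes, 37 were measured on all 4 arrays and 104 on 3 arrays, 63 of which lacked replicate 1. A further 6652 genes on the array were not tested.

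Most cell type markers did not reach the tests. Of 7 photoreceptor markers on the array, 5 had a value at day 7 and 0 were tested. Of 2 neuronal markers, both had a value and Gad1 was tested, and of 3 muscle markers, 2 had a value and Mlc2 was tested. The counts were 2 of 3 with a value for glia, 2 of 7 for fat body and 1 of 2 for haemocytes, none of them tested. The visual arrestin Arr2, which marks photoreceptors, had values on replicates 3 and 4 alone, at 0.74 and 0.91 after turning. As deposited these were -0.74 and -0.91. The other photoreceptor markers with a value on replicate 2, which needs no turning, were Arr1 at 0.015, inaD at 0.042 and inaC at -0.345. On replicate 4 after turning, trpl read 1.049, inaC 1.489 and inaD 0.4435, with the opposite signs as deposited. Of 4 markers of testis or male accessory gland, organs outside the head, Acp36DE alone had a value, on replicate 4, at 0.00. A ratio of treated to control does not measure how much of a tissue a pool holds, so these values do not check the tissue label.

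No probe passed the test at day 7. With replicates 3 and 4 turned, the background of calls at a limma adjusted p under 0.05 was 0% of the 865 probes, and the smallest adjusted p was 0.923. At an unadjusted p under 0.05 the call rate was 3.93%, or 34 probes, of which 15 (1.73%) were above 0 and 19 (2.2%) below. Taken as deposited, again 0% passed with a smallest adjusted p of 0.586, and 7.98%, or 69 probes, had an unadjusted p under 0.05, 42 (4.86%) above 0 and 27 (3.12%) below. A SAM-type statistic, which adds a constant to each probe's standard error, called 0 probes in either orientation. None of the 141 genes was among the 34 probes, and 4 of the 141, or 2.84%, were among the 69: Atf6, jdp, rdgC and CG17985, all below 0. For 1 gene taken alone, an exact sign-flip test over 4 arrays cannot give a two-sided p below 0.125. The values that follow are therefore measurements without a call, and no gene is said to have risen or fallen.

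The 141 genes split unevenly about 0, and the side depended on the orientation. With replicates 3 and 4 turned, the mean lay above 0 for 90 genes, or 63.8%, against 58.4% of all tested probes. As deposited, it lay above 0 for 42 genes, or 29.8%, against 48.6% of all tested probes. The median of the gene means was 0.17 turned and -0.23 as deposited, and for all tested probes it was 0.11 and -0.02. No gene had a mean beyond 1 in size in either orientation, while 9.36% of all tested probes did when turned and 13.5% did as deposited.

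Replicate 4 weighed most on that imbalance. The median of the genes was -0.02 on replicate 1, -0.04 on replicate 2, 0.20 on replicate 3 and 0.48 on replicate 4 after turning. Probes without a single symbol had medians of 0.03, 0.11, 0.19 and -0.21 on the same arrays, so on replicate 4 named genes and unnamed probes lay on opposite sides of 0. Without replicate 4, 76 of the 141 genes had a mean above 0 when turned and 59 did as deposited. Without the others the count ran from 87 to 98 turned and from 38 to 47 as deposited. The pattern also followed which arrays had measured a gene: 34 of the 37 genes on all 4 arrays had a turned mean above 0, against 28 of the 63 genes that lacked replicate 1. As deposited the order reversed, with 5 of the 37 and 33 of the 63 above 0. The shares of all tested probes with the same arrays were not counted.

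Genes that kept 1 sign on every array that measured them were few when turned and more when read as deposited. With replicates 3 and 4 turned, 22 genes were above 0 on every such array, or 15.6% against 9.36% of all tested probes, and 11 were below 0, or 7.8% against 6.13%. As deposited, 17 were above, or 12.1% against 12.9%, and 39 were below, or 27.7% against 14.1%. These shares are not like for like, because 1 sign is more easily kept on 3 arrays than on 4. Only 3 arrays had measured 104 of the 141 genes, against 262 of the 865 probes. Among the 37 genes on all 4 arrays, 4 kept their sign when turned, or 10.8% against 11.8% of the 603 probes, and 16 did as deposited, or 43.2% against 22.7%. Part of this rested on where 0 was set. With each array centred on the median of its single-symbol genes, a choice made after the data were seen, 16.2% of the 37 kept their sign when turned and 27% as deposited.

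**Figure D1:**
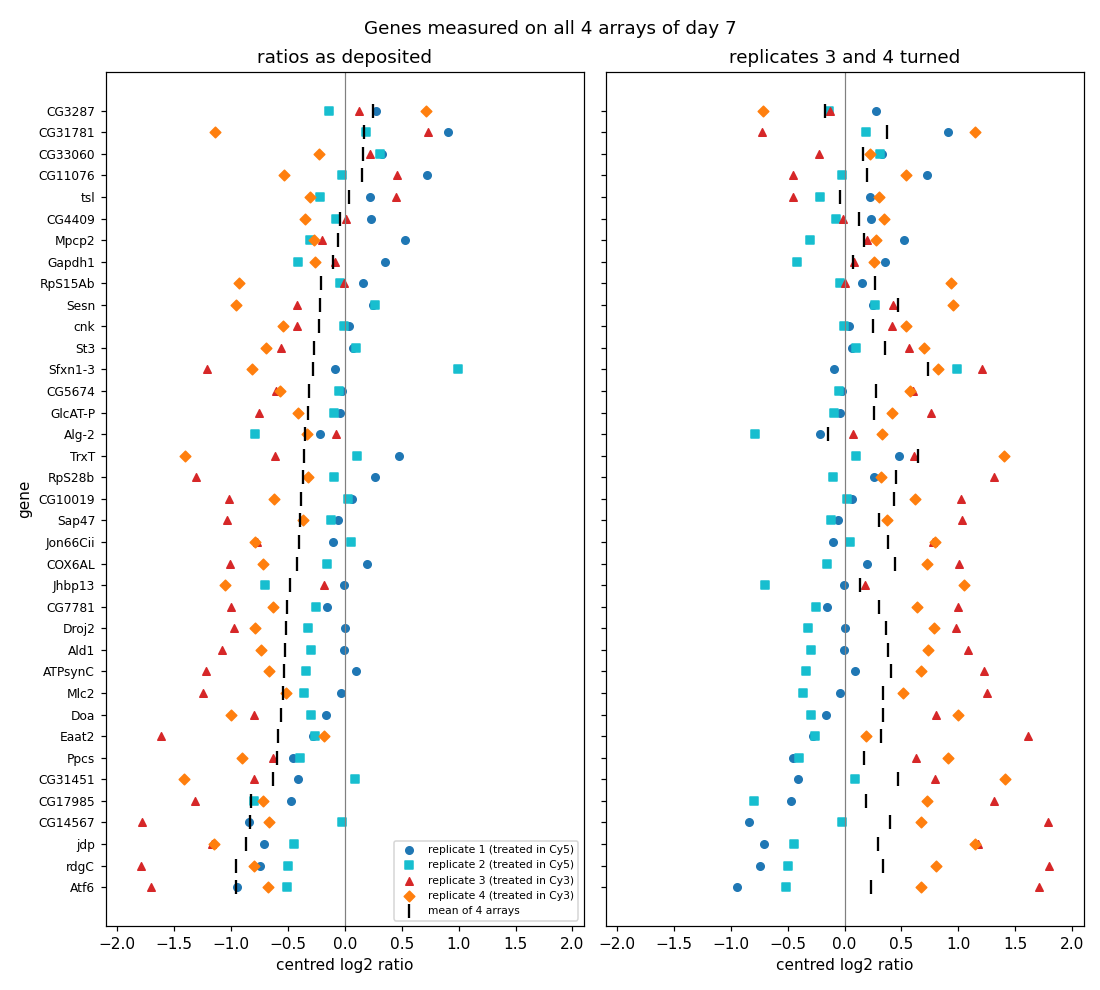
Centred log2 ratios of the 37 genes measured on all 4 arrays of day 7, 1 row per gene, with ratios as deposited on the left and replicates 3 and 4 turned on the right. Points are arrays, coloured by replicate, and the black tick is the mean of the 4. As deposited, the lowest rows (Atf6, rdgC, jdp) have all 4 points below 0, and after turning the same rows have replicates 1 and 2 below 0 and replicates 3 and 4 above.

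For 5 of the 6 pairs of arrays Pearson's r was higher over named genes than over all tested probes, the exception being replicates 1 and 4. By Spearman's rho replicates 2 and 4 were an exception as well, at 0.148 over genes and 0.218 over all tested probes. As deposited and across genes, which are not independent replicates, Pearson's r was 0.41 between replicates 1 and 2 (67 genes) and 0.56 between replicates 3 and 4 (111 genes). Between arrays of opposite dye it was 0.57 for replicates 1 and 3 (51 genes), 0.32 for replicates 2 and 3 (103 genes), 0.18 for replicates 2 and 4 (127 genes) and -0.16 for replicates 1 and 4 (75 genes; 0.0966 over all tested probes). For replicates 2 and 4 the share of the same sign was 60.6% over genes and 60.8% over all tested probes. The same correlations over all tested probes ran from -0.0067 to 0.136. Points of a pair share their dyes or not, and all share the probe set and its labelling, so these values describe the arrays and no more.

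Replicates 1 and 2 need no assumption on turning, and both measured 67 genes. On these arrays 29 genes lay below 0 on both, 11 lay above on both and 27 went opposite ways. The same sign was thus seen for 59.7% of the genes, against 57.1% of all tested probes on both arrays. Among genes of 1 sign on both arrays, the lowest means were those of CG13868 at -0.74 and of Atf6 at -0.73, followed by CG17985 at -0.63, rdgC at -0.62, zfh2 at -0.59 and jdp at -0.58. Among the same genes the highest mean was that of CG9445 at 0.62, followed by CG31781 at 0.55, CG33060 at 0.32, the thioredoxin gene TrxT at 0.29, the inositol-degrading oxygenase gene Miox at 0.27, the ornithine decarboxylase antizyme gene Oda at 0.27 and the sestrin gene Sesn at 0.26. The means of Sfxn1-3 (0.45) and CG11076 (0.35) also lay in this range, each with its arrays on opposite sides of 0. With 2 arrays these are values with no test. Replicates 3 and 4 shared 111 genes, of which 56 were above 0 on both after turning and 27 below, so that 74.8% had the same sign, against 59.5% of all tested probes.

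The lowest means as deposited were those of rdgC and Atf6. The gene rdgC encodes the calcium-regulated phosphatase that dephosphorylates rhodopsin in the fly eye. Its ratio was -0.74 on replicate 1, -0.50 on replicate 2, -1.79 on replicate 3 and -0.80 on replicate 4 as deposited, a mean of -0.96 ± 0.57 (SD, n = 4; limma unadjusted p = 0.0276, adjusted p = 0.586). All 4 arrays lay below 0. With replicates 3 and 4 turned they read 1.79 and 0.80, and the mean became 0.34 ± 1.18, with the arrays of one dye below 0 and those of the other above. The photoreceptor gene rtp, which encodes retinophilin, was the other tested gene of the phototransduction list. It read -0.01 and -0.18 on replicates 1 and 2, had no value on replicate 3, and read 0.98 on replicate 4 after turning. Its mean was 0.26 ± 0.63 turned and -0.39 ± 0.52 as deposited (n = 3). Of 18 phototransduction genes on the array these 2 were tested. Both had means above 0 when turned and below 0 as deposited, as did the medians of most lists.

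Atf6 encodes a transcription factor of the unfolded protein response that is held in the endoplasmic reticulum membrane until stress frees it. As deposited it read -0.95, -0.51, -1.70 and -0.67 on replicates 1 to 4, a mean of -0.96 ± 0.53 (n = 4; limma unadjusted p = 0.0244, adjusted p = 0.586). All arrays were below 0, with replicate 3 the lowest. Turned, its mean was 0.23 ± 1.20, with replicates 1 and 2 below 0 and the others above. The transcription and chromatin list held 6 other tested genes of 105 on the array. The turned mean lay above 0 for 3 of the 7, and the deposited mean for 2 of the 7. The homeobox gene otp, which acts in brain and hindgut development, stood at the other end. It had no value on replicate 1, read 0.17 on replicate 2, and read 1.00 and 1.22 on replicates 3 and 4 as deposited, a mean of 0.80 ± 0.55 (n = 3). Turned, its mean was -0.68 ± 0.75, the lowest of the 141 genes. The zinc-finger gene mamo, by contrast, was above 0 on each of its 3 arrays when turned, at 0.25, 0.93 and 0.87 on replicates 1, 3 and 4, a mean of 0.68 ± 0.38 turned and -0.52 ± 0.66 as deposited. Of the remaining 4, the zinc-finger homeobox gene zfh2 had no value on replicate 3, with a mean of -0.21 ± 0.67 turned and -0.58 ± 0.05 as deposited. For crc, the fly ATF4 gene, the means were -0.01 ± 0.37 turned and -0.27 ± 0.18 as deposited. The mean of hng2 was 0.58 ± 0.50 turned and -0.45 ± 0.68 as deposited, and that of sob was -0.29 ± 0.65 turned and 0.50 ± 0.42 as deposited.

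Both tested chaperone genes, of 25 on the array, encode J-domain proteins, the co-chaperones that stimulate Hsp70. As deposited jdp read -0.71, -0.45, -1.17 and -1.15 on replicates 1 to 4, a mean of -0.87 ± 0.35 (n = 4; limma unadjusted p = 0.0227, adjusted p = 0.586). All 4 arrays were below 0. Turned, the mean was 0.29 ± 1.01. Droj2 read 0.00 and -0.32 on replicates 1 and 2 and 0.98 and 0.79 on replicates 3 and 4 after turning, for a mean of 0.36 ± 0.62 turned and -0.52 ± 0.44 as deposited. It was thus near 0 on replicate 1 and below 0 as deposited on the other arrays. CG17985, for which no role is given here, was the last of the 4 genes at an unadjusted p under 0.05 as deposited. It read -0.47, -0.80, -1.32 and -0.72, a mean of -0.83 ± 0.35 (limma adjusted p = 0.586), and its turned mean was 0.19 ± 0.99.

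**Figure D2:**
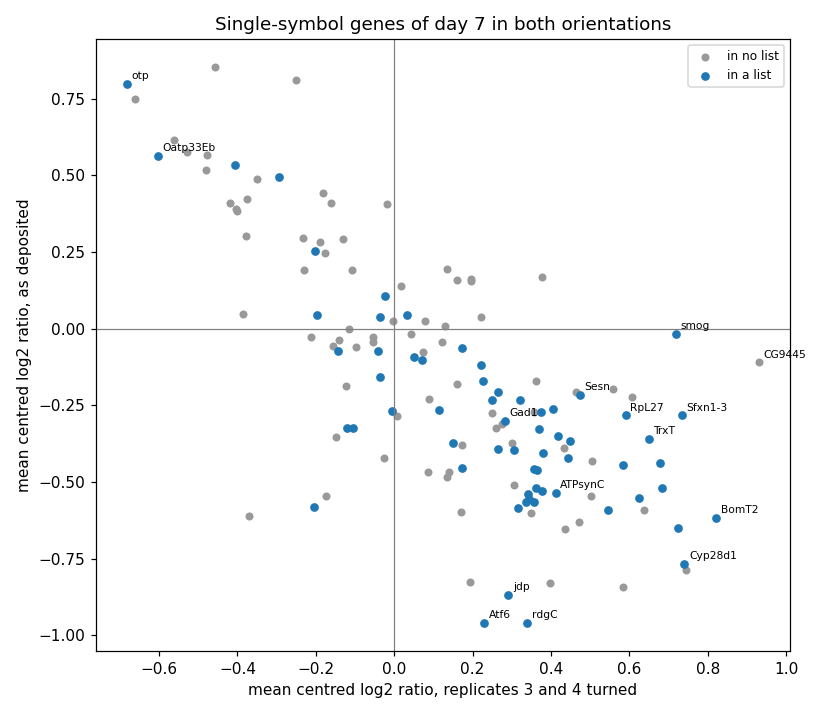
Mean centred log2 ratio of each of the 141 single-symbol genes of day 7, with replicates 3 and 4 turned on the horizontal axis and as deposited on the vertical axis. Blue points are genes of a functional list and grey points are in none. Replicates 1 and 2 enter both means unchanged. Genes at the lower middle (Atf6 at 0.23 and -0.96, rdgC at 0.34 and -0.96) have low values as deposited and values near the middle when turned.

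The redox list was the only 1 of the 15 lists with over 1 tested gene whose median was above 0 on all 4 arrays when turned. Of 22 on the array, TrxT and Sesn were tested. TrxT, a thioredoxin known in flies from the testis, read 0.48, 0.10, 0.61 and 1.40 on replicates 1 to 4 after turning, a mean of 0.65 ± 0.55 (n = 4; limma adjusted p = 0.923). All arrays were above 0, and replicate 4 was the highest. As deposited its mean was -0.36 ± 0.83. The testis markers dj, Mst87F and bam had no value on any array of day 7, so the part of other tissue in this value was not tested. Sesn, whose product is induced by stress and restrains TOR signalling, read 0.25, 0.27, 0.42 and 0.96 after turning, a mean of 0.47 ± 0.33 turned and -0.22 ± 0.59 as deposited. All 4 arrays were again above 0 when turned, and replicate 4 was again the highest. The median of both genes was 0.36, 0.18, 0.52 and 1.18 on the 4 arrays after turning.

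Genes of oxidative phosphorylation gave opposite signs in the 2 orientations, which was not particular to them. Of the 15 lists with over 1 tested gene, 13 had a median of gene means above 0 when turned and below 0 as deposited. Of 44 on the array, 5 were tested. The turned mean lay above 0 for 4 of the 5 and the deposited mean for 0 of the 5. The median of the list was 0.22 and -0.17 on replicates 1 and 2 and 1.01 and 0.72 on replicates 3 and 4 after turning, so only the latter pair stood clear of 0. The mean of these medians was 0.45 ± 0.52 turned and -0.42 ± 0.55 as deposited. ATPsynC, the membrane ring subunit of ATP synthase, read 0.09, -0.34, 1.22 and 0.67 after turning, a mean of 0.41 ± 0.68 turned and -0.53 ± 0.56 as deposited. COX6AL, a cytochrome c oxidase subunit 6A gene, read 0.20, -0.15, 1.01 and 0.72, a mean of 0.44 ± 0.52 turned and -0.42 ± 0.54 as deposited. The catalytic ATP synthase subunit gene ATPsynbeta read 0.38, -0.17 and 1.00 on replicates 1, 2 and 4 after turning, a mean of 0.40 ± 0.58 turned and -0.26 ± 0.70 as deposited. In these 3 genes replicate 2 was the low array. Complex I gene ND-B17.2 had a mean of 0.36 ± 0.59 turned and -0.46 ± 0.48 as deposited, and complex II gene SdhD had -0.04 ± 0.33 and -0.07 ± 0.32.

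The genes of glycolysis and glycogen had the signs of most lists. Of 21 on the array, 4 were tested, and all 4 had means above 0 when turned and below 0 as deposited. The aldolase gene Ald1 read -0.01, -0.30, 1.08 and 0.73 after turning, a mean of 0.38 ± 0.64 turned and -0.53 ± 0.47 as deposited. Gapdh1, the glyceraldehyde-3-phosphate dehydrogenase gene, read 0.35, -0.41, 0.08 and 0.26, a mean of 0.07 ± 0.34 turned and -0.10 ± 0.33 as deposited, close to 0 in both. The glycerol-3-phosphate dehydrogenase gene Gpdh1 rested on a single high array: -0.32, 1.47 and -0.12 on replicates 2, 3 and 4 after turning, a mean of 0.34 ± 0.98 turned and -0.56 ± 0.82 as deposited. Gbs-70E, a subunit that targets protein phosphatase 1 to glycogen, read 0.04 and 0.06 on replicates 1 and 2 and 1.15 on replicate 4 after turning, a mean of 0.42 ± 0.63 turned and -0.35 ± 0.69 as deposited.

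Cytosolic ribosomal protein and translation factor genes showed the same signs, again those of most lists. Of 23 cytosolic ribosomal protein genes on the array 3 were tested, and of 31 translation factor genes 4. All 7 had means above 0 when turned and below 0 as deposited. RpL27 had the narrowest spread, at 0.46, 0.69 and 0.62 on replicates 2, 3 and 4 after turning, a mean of 0.59 ± 0.12 (n = 3). As deposited, its replicate 2 stood against the other 2 arrays and the mean was -0.28 ± 0.65. RpS28b read 0.26, -0.10, 1.31 and 0.32, a mean of 0.45 ± 0.60 turned and -0.37 ± 0.67 as deposited. RpS15Ab was measured by 2 probes that disagreed. One gave 0.26 ± 0.45 turned and -0.21 ± 0.49 as deposited, and the other gave 0.07 ± 1.09 and -0.83 ± 0.53. The translation elongation factor gene eEF1alpha2 was above 0 on each of its arrays when turned, at 0.36, 0.62 and 1.05 on replicates 2, 3 and 4, a mean of 0.68 ± 0.35 turned and -0.44 ± 0.72 as deposited. The means of eIF3f1, eEF5 and eIF4G1 were 0.55 ± 0.70, 0.15 ± 0.52 and 0.12 ± 0.41 turned and -0.59 ± 0.64, -0.37 ± 0.30 and -0.26 ± 0.28 as deposited. The only tested mitochondrial ribosomal protein gene of 48, mRpS34, had means below 0 in both orientations. It read -0.29, 0.13 and 0.05 on replicates 1, 3 and 4 after turning, a mean of -0.04 ± 0.23 turned and -0.16 ± 0.12 as deposited.

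**Figure D3:**
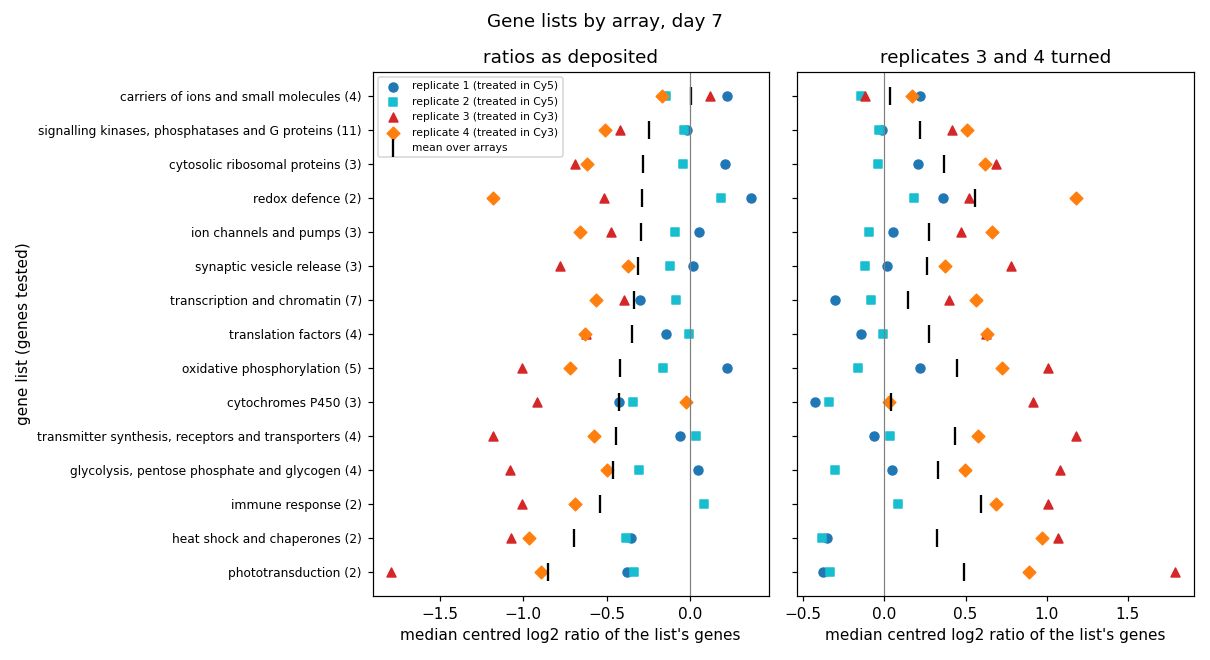
Median centred log2 ratio of the tested genes of each list on each array of day 7, for the 15 lists with over 1 tested gene, as deposited on the left and with replicates 3 and 4 turned on the right. The number of tested genes stands in brackets, and the black tick is the mean over arrays. After turning, replicates 3 and 4 are both above 0 for 14 of the 15 lists, while replicates 1 and 2 are both above 0 for 1 list and both below 0 for 6.

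Genes of the GABA system, on which PTZ acts, were barely measured. Of 9 genes on the array that encode GABA receptors, GABA enzymes, chloride or calcium channel subunits or the release factor Rop, 6 had a value on any array of day 7 and Gad1 alone was tested. Gad1 encodes glutamate decarboxylase, which makes GABA. It read -0.06 and 0.03 on replicates 1 and 2 and 0.88 on replicate 3 after turning, with no value on replicate 4, for a mean of 0.28 ± 0.52 turned and -0.30 ± 0.50 as deposited (n = 3). Both arrays that need no turning thus lay close to 0. Without centring the turned mean of Gad1 was -0.40. With discordant duplicate spots removed, Gad1 no longer had a value on 3 arrays. The other 5 had a value on replicate 4 alone, with no replicate check. On the turned scale these were 2.02 for Lcch3, a GABA receptor subunit gene, 1.29 for the glutamate-gated chloride channel gene GluClalpha, 0.65 for the GABA transaminase gene Gabat, -0.25 for the calcium channel gene Ca-beta and -0.49 for Rop. As deposited each of these 5 values has the opposite sign. On the same array and scale the median of the 141 tested genes, which do not include these 5, was 0.48. The median of all probes with a value on that array was 0 by the centring.

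Of 40 genes for transmitter synthesis, receptors and transporters, 4 were tested, Gad1 among them. All 4 had means above 0 when turned and below 0 as deposited, as did the medians of most lists. Eaat2, a transporter of acidic amino acids, read -0.28 and -0.26 on replicates 1 and 2 and 1.62 and 0.19 on replicates 3 and 4 after turning, a mean of 0.32 ± 0.89 turned and -0.58 ± 0.69 as deposited. Replicate 3 decided the sign of the turned mean. The neuropeptide precursor gene Nplp1 read 0.06, 0.26 and 0.78 on replicates 2, 3 and 4, and Pal2, which encodes an enzyme of neuropeptide amidation, read 0.11, 1.49 and 0.58 on replicates 1, 3 and 4, all above 0 when turned. Their means were 0.37 ± 0.37 and 0.72 ± 0.70 turned and -0.33 ± 0.43 and -0.65 ± 0.80 as deposited.

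Synaptic vesicle genes did not share 1 direction when turned. Of 14 on the array, 3 were tested. The synapse-associated protein gene Sap47 read -0.06, -0.12, 1.03 and 0.37 on replicates 1 to 4 after turning, a mean of 0.31 ± 0.53. The amphiphysin gene Amph, which acts in membrane bending, read 0.15, 0.52 and 0.45 on replicates 2, 3 and 4. Rab3, a small GTPase of synaptic vesicles, read 0.09, -0.76 and 0.31 on replicates 1, 2 and 4. The means of Amph and Rab3 were 0.37 ± 0.20 and -0.12 ± 0.56 turned. As deposited the means of Sap47, Amph and Rab3 were -0.40, -0.27 and -0.33. Of 37 ion channel and pump genes 3 were tested: the sodium pump beta subunit gene nrv3 at 0.62 ± 0.50 turned, the V-ATPase gene Vha44 at 0.32 ± 0.45 and the gap junction gene Inx7 at -0.14 ± 0.19. As deposited these means were -0.55 ± 0.61, -0.23 ± 0.52 and -0.07 ± 0.24.

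Carriers split evenly whichever way the arrays were read. Of 61 on the array, 4 were tested. Sfxn1-3 and Mpcp2 had means above 0 only when turned, and Oatp33Eb and Zip88E only as deposited. Sfxn1-3, which encodes a mitochondrial carrier of the sideroflexin family, read -0.09, 0.99, 1.21 and 0.82 on replicates 1 to 4 after turning, a mean of 0.73 ± 0.57 turned and -0.28 ± 0.97 as deposited. Its 2 arrays that need no turning differed by over 1 log2 unit. The mitochondrial phosphate carrier gene Mpcp2 read 0.53, -0.31, 0.20 and 0.27, a mean of 0.17 ± 0.35 turned and -0.06 ± 0.39 as deposited. The organic anion transporter gene Oatp33Eb read -0.06, -0.57 and -1.17 on replicates 2, 3 and 4, all below 0 when turned, with a mean of -0.60 ± 0.56 turned and 0.56 ± 0.62 as deposited. The zinc transporter gene Zip88E had a mean of -0.20 ± 0.25 turned and 0.04 ± 0.35 as deposited.

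Of 73 cytochrome P450 genes on the array 3 were tested, and all 3 had means below 0 as deposited. Cyp28d1, of the oxygenase family that includes detoxifying enzymes, read -0.04, 1.42 and 0.84 on replicates 2, 3 and 4 after turning, a mean of 0.74 ± 0.73 turned and -0.77 ± 0.69 as deposited. Cyp4d21 read 0.17 ± 0.68 turned and -0.46 ± 0.45 as deposited, and Cyp313a1 read -0.11 ± 0.61 and -0.33 ± 0.48. Of 41 immune genes 2 were tested. BomT2, a bomanin gene induced by the Toll pathway, read 0.31, 0.77 and 1.39 on replicates 2, 3 and 4 after turning, a mean of 0.82 ± 0.54 turned and -0.62 ± 0.86 as deposited. It was above 0 on each of its arrays when turned. The chitinase-like growth factor gene Idgf6 read -0.14, 1.25 and -0.01, so its turned mean of 0.37 ± 0.77 rested on replicate 3, and its deposited mean was -0.46 ± 0.69.

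The signalling list had the most tested genes, 11 of 100 on the array. When turned, 8 of the 11 had means above 0, and as deposited 3 did. Its median was -0.02, -0.04, 0.42 and 0.51 on replicates 1 to 4 after turning. The G protein-coupled receptor gene smog read 1.05, 0.56 and 0.55 on replicates 2, 3 and 4, a mean of 0.72 ± 0.29 turned and -0.02 ± 0.93 as deposited. Doa, a kinase gene of the LAMMER family that acts on splicing factors, read -0.16, -0.30, 0.80 and 1.00, a mean of 0.33 ± 0.66 turned and -0.57 ± 0.40 as deposited, and so had the same sign on 4 arrays as deposited. RabX6, a Rab family GTPase gene, read 0.19, -0.60 and -0.81 on replicates 2, 3 and 4 after turning, a mean of -0.41 ± 0.53 turned and 0.53 ± 0.32 as deposited. The Ras pathway scaffold gene cnk read 0.04, -0.01, 0.42 and 0.54, and the terminal patterning gene tsl read 0.22, -0.22, -0.45 and 0.30, with means of 0.25 ± 0.27 and -0.04 ± 0.36 turned and -0.23 ± 0.29 and 0.04 ± 0.36 as deposited. The turned means of the other 6 were 0.36 ± 0.90 for the polo-like kinase gene SAK, 0.23 ± 0.37 for the small GTPase gene Ric, 0.22 ± 0.32 for the receptor adaptor gene PVRAP, 0.05 ± 0.14 for the TGF-beta family ligand gene mav, 0.03 ± 0.09 for the protein kinase A regulatory subunit gene Pka-R1, and -0.12 ± 0.56 for Rab3, also a synaptic vesicle gene. As deposited, in the same order, they were -0.57 ± 0.72, -0.17 ± 0.41, -0.12 ± 0.40, -0.09 ± 0.10, 0.04 ± 0.08 and -0.33 ± 0.42, so Pka-R1 alone of these 6 stayed above 0.

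Of the 26 lists, 21 had a tested gene. The lists for glutathione and UDP transferases, cuticle, fat body with lipid and yolk, cytoskeleton, and proteasome with ubiquitin had 0 tested genes. The median of gene means was above 0 for 16 of the 21 lists when turned and for 2 of the 21 as deposited. The single genes of the remaining lists read as follows when turned. The myosin light chain gene Mlc2, a muscle marker, was -0.04, -0.36, 1.25 and 0.51 on replicates 1 to 4. Jon66Cii, a serine protease gene of the gut, read -0.10, 0.05, 0.78 and 0.79. Their means were 0.34 ± 0.70 and 0.38 ± 0.47 turned and -0.54 ± 0.51 and -0.40 ± 0.44 as deposited. The mean was -0.02 ± 0.13 turned and 0.11 ± 0.04 as deposited for the odorant-binding protein gene Obp56d. It was -0.20 ± 0.52 and 0.25 ± 0.48 for the splicing factor gene Sf3b6.

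Of the genes in no list, 45 had CG numbers alone and 33 had other names. CG9445 had the highest turned mean of the 141 genes, at 0.93 ± 0.60, with 0.86, 0.37 and 1.56 on replicates 1, 2 and 4. Among genes measured on both replicates 1 and 2 it also had the highest mean of those arrays. As deposited its mean was -0.11 ± 1.28. CG1674 was below 0 on each of its arrays when turned, at -0.51, -0.11 and -0.54 on replicates 1, 3 and 4, a mean of -0.39 ± 0.24 turned and 0.05 ± 0.52 as deposited. CG18493 and CG10911 had the highest deposited means, at 0.85 ± 0.32 and 0.81 ± 0.02, each without replicate 1, and turned means of -0.46 ± 0.94 and -0.25 ± 0.94. CG10911 read 0.84, 0.79 and 0.80 on replicates 2, 3 and 4 as deposited, and turned it read 0.84 against -0.79 and -0.80.

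Day 7 was also set against the earlier heads, which had both drugs to the end, over the 658 probes measured on at least 3 arrays of every time. No probe passed in either contrast. For day 7 minus 2 days, 0% passed with a smallest limma adjusted p of 0.984, and 1.98% had an unadjusted p under 0.05. For day 7 minus 12 h, 0% passed with a smallest adjusted p of 0.888, and 3.95% had an unadjusted p under 0.05. As deposited the smallest adjusted p values were 0.585 and 0.814, and 5.78% and 4.71% had an unadjusted p under 0.05. Among the probes were 36 named genes, 0 of which had an unadjusted p under 0.05 in either contrast and orientation.

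The 36 genes read higher at day 7 than at 2 days in all 36 cases when turned, with a median difference of 0.44, against 55.6% of all probes in the contrast. As deposited the difference was above 0 for 13 of the 36, against 40.9%. On the arrays with the treated sample in Cy5, which need no turning, it was above 0 for 21 of the 25 genes measured on all 6. The median there was 0.22, and the share of all probes above 0 was 47.4%. Single arrays weighed on these counts. The median of the 36 genes was -0.57 on replicate 2 of 2 days and between 0.00 and 0.20 on the other arrays of that time. At day 7 it was -0.01 and -0.15 on replicates 1 and 2 and 0.69 and 0.77 on replicates 3 and 4 after turning. Against 12 h the direction was mixed: the difference was above 0 for 22 of the 36 when turned (60.5% of all probes), 6 as deposited (45.7%) and 7 of the 25 in Cy5 (55.2%).

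**Figure D4:**
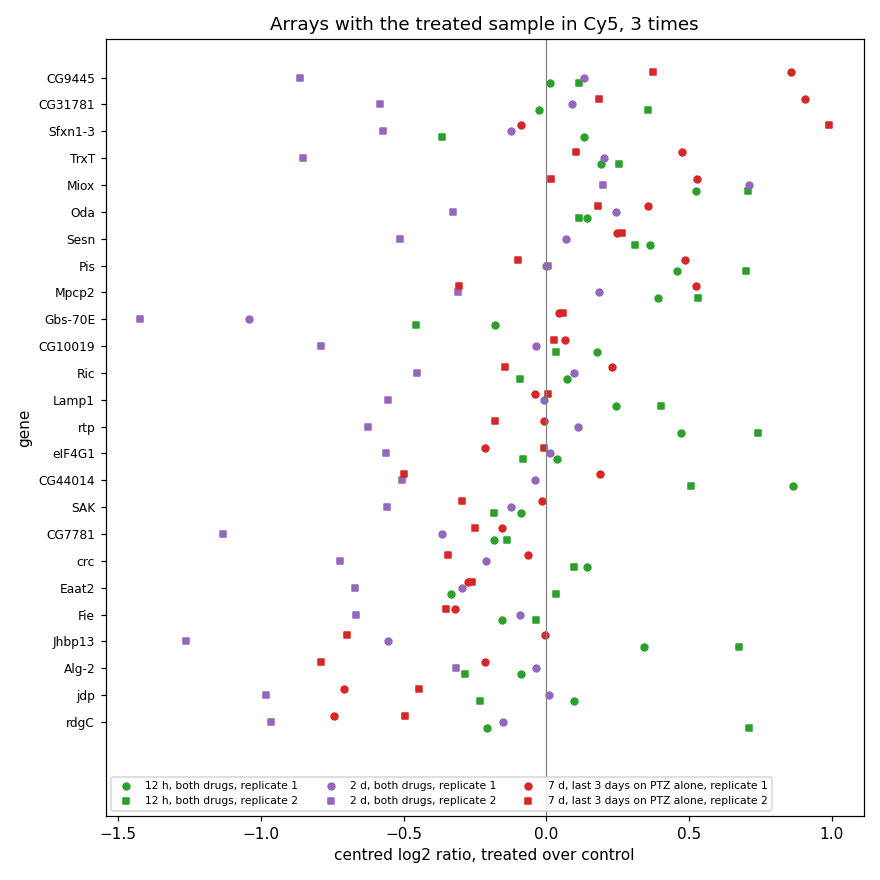
Centred log2 ratio, treated over control, of the 25 genes measured on all 6 arrays with the treated sample in Cy5, 1 row per gene, at 12 h (green), 2 days (purple) and 7 days (red). Circles are replicate 1 and squares replicate 2. Replicate 2 of 2 days is the lowest point of most rows, and for Gbs-70E both points of 2 days lie below -1 while both points of day 7 lie near 0.

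The genes of smallest p in the contrast with 2 days were Gbs-70E, BomT2 and TrxT, none of which passed. Gbs-70E read -1.04, -1.42, -0.22 and 0.21 at 2 days after turning, against 0.04, 0.06 and 1.15 at day 7. The difference was 1.04 ± 0.55 (SE; limma unadjusted p = 0.0855, adjusted p = 0.984), and in Cy5 arrays alone it was 1.28 ± 0.65, but as deposited it was 0.26 ± 0.58. BomT2 read 0.04, -0.49, -0.14 and 0.06 at 2 days after turning, and its difference of 0.95 ± 0.49 became -0.52 ± 0.55 as deposited. TrxT read 0.20, -0.85, 0.22 and -0.08 at 2 days, a difference of 0.78 ± 0.47 that became -0.16 ± 0.51 as deposited. The ranges of 2 days and day 7 overlapped for TrxT and for Gbs-70E and did not for BomT2 when turned. These genes were picked by their p, and the share of all probes with ranges apart was not counted.

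Against 12 h the smallest p values belonged to CG9445, CG7781 and mRpS34, and again none passed. CG9445 read 0.01, 0.11, 0.44 and -1.81 at 12 h after turning, and the difference was 1.24 ± 0.68 turned, -0.48 ± 0.74 as deposited and 0.55 ± 0.71 in Cy5 arrays. CG7781 read -0.18, -0.14, -3.06 and -0.29 at 12 h, so replicate 3 of 12 h set most of its difference of 1.22 ± 0.70. As deposited the difference had the opposite sign, at -1.27 ± 0.67 (limma unadjusted p = 0.0822), and in Cy5 arrays it was -0.04 ± 0.67. The mitochondrial ribosomal protein gene mRpS34 read 0.98, 1.37, 1.14 and 0.63 at 12 h after turning, all above its 3 values at day 7. Here too the share of all probes with ranges apart was not counted. Its difference was -1.07 ± 0.60 turned (limma adjusted p = 0.907) and -0.30 ± 0.65 as deposited. On replicate 1, which needs no turning, it read 0.98 at 12 h and -0.29 at day 7.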

How the data were processed

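Head RNA was compared on two-colour cDNA arrays of the D12Kv1 design. The authors deposited log2 ratios, 1 per spot. The design text says that slides were scanned with a GenePix 4000A at 10 micrometres, quantified in GenePix Pro 6.0, normalized by ratio in Acuity 4.0 and filtered on saturated pixels (under 3%), pixel regression (R2 from 0.6) and signal to noise (from 3). Spots under a raw intensity of 100 were ignored in the normalization, and a one-class test in SAM 3.0 is named. The log base, direction and genome build are not given in the sources used here. Base 2 was read from the top of the values. The labels call both channels of replicate 1 untreated, and its treatment protocols settled it. The dye-swapped arrays of day 7 carry no replicate number in the labels and took 3 and 4 by accession.

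Adjacent spots (27648, in 13824 pairs) were averaged, and each array was centred on its median. Symbols came from the platform annotation, 7447 of 7558 single symbols being updated through RefSeq's Release 6 plus ISO1 MT table. For RpS15Ab, with 2 tested probes, the one on the most arrays, then the first, stands for the gene. The test asked whether the mean of a probe with 3 or 4 values differed from 0 (limma 3.58.1, R 4.3.3, intercept only, two-sided, Benjamini-Hochberg over all probes tested, threshold 0.05). Contrasts between times came from 1 fit of all 12 arrays. SDs are over arrays, and SEs are limma's. The script was tested on simulated data. Precision is limited by the number of arrays, and signal over background per spot was not used here.

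The arrays, the gene lists and the rules were chosen with earlier results of these data known. Named genes are the 8 of smallest p per orientation and direction among genes of 1 sign, the list genes on all 4 arrays with up to 5 others per list, the GABA and drug-target genes with any value, and the 3 of smallest p per contrast. Others (among them CG13868, zfh2, CG31781, CG33060, CG11076, Miox and Oda, and marker genes) were named after their values were seen. Matches of list patterns to symbols were corrected from the gene names alone. The alternatives were orientation, centring, dye term, filters, duplicate spots, extreme ratios, the test and left-out arrays.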

Additional observations from a re-analysis of the deposited data

Results flagged for a closer look

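Gbs-70E, the glycogen-targeting phosphatase subunit gene, lay on opposite sides of 0 at 12 h and at day 7 when dye-swapped arrays were turned. All 4 arrays of 12 h were below 0, at -0.18, -0.46, -0.53 and -0.74, and all 3 arrays of day 7 that measured it were above 0, at 0.04, 0.06 and 1.15. The lower 2 of these day 7 values lay close to 0, and the share of all probes with such a split was not counted. The difference between the times was 0.89 (limma unadjusted p = 0.132, adjusted p = 0.931), so it did not pass the test. In Cy5 arrays alone the difference was 0.37 ± 0.65 (SE). As deposited the means were 0.16 at 12 h and -0.35 at day 7. Of the 25 named genes on all 4 arrays of day 7, 0 had an array far from the others by Dixon's test.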

How the results depend on the processing

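The count of 0 probes past an adjusted p of 0.05 at day 7 held under every alternative run except values left uncentred with replicates 3 and 4 turned, where 10 probes passed, 1 above 0 and 9 below, 0 of them with a single symbol. For most of these 10 the uncentred SD over arrays was larger than the size of the mean. Uncentred as deposited, 0 passed. At an unadjusted p under 0.05 the count was 34. It became 69 as deposited, 53 without centring, 67 with probes on at least 2 arrays and 22 with discordant duplicate spots removed. Under alternatives added after seeing the data it was 63 without centring as deposited and 78 as deposited with arrays centred on single-symbol genes. Leaving out 1 array each gave 24 to 44 turned and 46 to 64 as deposited, with 0 past the adjusted threshold throughout. The cause of these shifts was not tested. Of the 79 named genes, 71 changed the sign of their mean as deposited and 61 moved by over 1 SD. The sign changed for 22 without centring, for 3, 6, 14 and 6 without replicates 1, 2, 3 and 4, for 3 with a dye term and for 5 when centred on single-symbol genes. Of the 21 lists, 19 changed sign as deposited and 12 without centring. Both contrasts between times stayed at 0 probes past the threshold in all alternatives, including the fit with a replicate block over the 6 arrays numbered 1 and 2 in the labels, where 0 of 502 probes passed in either contrast. Deviations of same-numbered arrays correlated at -0.019 to 0.0916 between times. The 2 spots of a probe correlated at only 0.0957 and 0.0965 on replicates 1 and 2 of day 7. With such noise these values could not settle whether the numbers paired the arrays. With replicates 1 and 2 alone no test was run. Limits are the unsettled direction, the few spots with a value and 4 arrays per time.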
